A study of Mus musculus with 4 samples.

Results

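The HoxB cluster of mouse chromosome 11 was profiled by chromatin immunoprecipitation on 2-colour tiling arrays (ChIP-chip) for RING1B and for H3K27me3. Its members were all probes whose array coordinates lie in the window that runs from Hoxb13 at the low end to Hoxb1 at the high end. They numbered 301 of 474380 probes in the series, all of them among the 237185 probes of array 2, and spanned 179 kb from 96004929 to 96184338. The tissue was pools of whole forelimb buds from wild type E10.5 embryos of the strain BDF1, fixed with 1% formaldehyde for 20 min, and precipitated and input DNA were both amplified in a double round with T7 RNA polymerase. The RING1B group and the H3K27me3 group each held 1 array that carries the cluster, with input DNA of the same tissue in the other dye as the comparison. There was therefore no replicate and no test, and errors below are standard deviations over probes, which leave out variation between embryos and precipitations. Because whole buds were pooled, occupancy in fewer cells and weaker occupancy per cell cannot be told apart.

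RING1B is the catalytic subunit of Polycomb repressive complex 1, which ubiquitylates histone H2A, and H3K27me3 is the histone mark placed by Polycomb repressive complex 2. Both typically cover Hox clusters as broad domains where the genes are silent. Hox genes encode homeodomain transcription factors that pattern the body axis, and their order along a cluster matches the order of their expression along it, with the group 13 gene the most posterior. Within HoxB, Hoxb1 is known for hindbrain segment identity, Hoxb4 and Hoxb5 for cervical and shoulder levels, Hoxb9 for thoracic levels and Hoxb13 for the tail. The cluster also holds the microRNA genes Mir196a-1 and Mir10a.

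The probes formed 6 tiled blocks, split wherever neighbouring probe starts were over 1000 bp apart. Within blocks the median distance between starts was 177 bp, and probes were 45 to 60 bases long. The array coordinates are not those of the build of the gene table used here (GRCm38.p6), so genes were matched by spacing within each build and no position was carried over. Distances between block ends were set against distances between gene starts, counted from Hoxb13, and a match within 500 bp was accepted. The end of block 2 lay 77.0 kb beyond that of block 1, within 30 bp of the spacing of Hoxb9. Block 3 ended 109.2 kb beyond it, within 5 bp of the spacing of Hoxb5. Block 4 lay within 342 bp of the spacing of Hoxb4, and block 6 within 94 bp of that of Hoxb1. By the same measure on block starts, block 2 opened at the spacing of Mir196a-1 (405 bp off) and block 4 at that of Mir10a (174 bp off). Block 5 matched no gene start in the table. Hoxb2, Hoxb3, Hoxb6, Hoxb7 and Hoxb8 had no block within 500 bp of their listed starts, so no level is given for them. All gene names of blocks rest on this spacing and are tentative.

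The mature microRNAs of blocks 2 and 4 are shown because their genes fall in tiled blocks of unlike level. The sequences are from RefSeq (GRCm38.p6), with the seed, bases 2 to 8, in capitals. The miR-196a seed pairs with a site in Hoxb8 mRNA, and miR-10a lies just upstream of Hoxb4.
mmu-miR-196a-5p (chr11:96265187-96265208, plus strand): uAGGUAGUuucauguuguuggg
mmu-miR-10a-5p (chr11:96317186-96317208, plus strand): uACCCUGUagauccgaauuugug

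Promoters of 3 of the 10 genes were in the RefSeq promoter table (Hoxb1, Hoxb4 and Hoxb8). Those of Hoxb4 and Hoxb1 are printed because both fall in tiled blocks of lower median, described below. They run from 250 bases before to 50 bases after the gene start in GRCm38.p6, with each CG in capitals.
Hoxb4 (chr11:96318017-96318316, plus strand): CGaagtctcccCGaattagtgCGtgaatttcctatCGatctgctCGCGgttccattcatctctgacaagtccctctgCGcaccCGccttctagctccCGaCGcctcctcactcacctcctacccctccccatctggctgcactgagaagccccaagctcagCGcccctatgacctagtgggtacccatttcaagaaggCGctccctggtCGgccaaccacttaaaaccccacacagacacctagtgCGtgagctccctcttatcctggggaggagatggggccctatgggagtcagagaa
Hoxb1 (chr11:96365508-96365807, plus strand): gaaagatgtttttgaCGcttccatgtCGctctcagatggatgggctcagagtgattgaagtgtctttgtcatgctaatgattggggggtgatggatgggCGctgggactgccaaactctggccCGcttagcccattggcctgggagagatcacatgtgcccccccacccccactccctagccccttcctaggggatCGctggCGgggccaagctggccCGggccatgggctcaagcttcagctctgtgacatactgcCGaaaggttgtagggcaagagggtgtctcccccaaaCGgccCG

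The Hoxb4 promoter held 14 CG pairs and the Hoxb1 promoter 10, against a median of 7 over 32851 promoters of the same length. At least 14 were found in 36.3% of promoters and at least 10 in 43.5%. On either strand, the PBX and HOX pair motif TGATNNAT occurred once in the Hoxb1 promoter, as TGATGGAT, and not in that of Hoxb4. It occurs in 8.85% of all promoters in the table. The MEIS motif TGACAG, found in 19.2% of promoters, was in neither.

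Each value is the log2 of Cy5 over Cy3, from processed signals, minus the median of all kept probes of the array. The labels state the opposite orientation, with the precipitate in Cy3 and the input in Cy5. With the dyes as labelled, every sign below turns and a high value is a depletion of precipitated DNA. The 2 dyes were therefore also read separately. Over the cluster, Cy5 stood 3.63 above the array median of log2 Cy5 for RING1B and 3.12 above it for H3K27me3. Cy3 stood at -0.13 and -0.03 relative to its own array median. By these cluster medians the ratio followed Cy5 and Cy3 was close to the array's middle, which does not hold for every probe. Between the antibodies, Cy3 signals of the cluster correlated across 276 probes with r = 0.797 and Cy5 signals with r = 0.895. For all 178940 shared probes these were 0.837 and 0.722. The probes are the same on both arrays, and the labels do not say whether the input was shared.

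**Figure D1:**
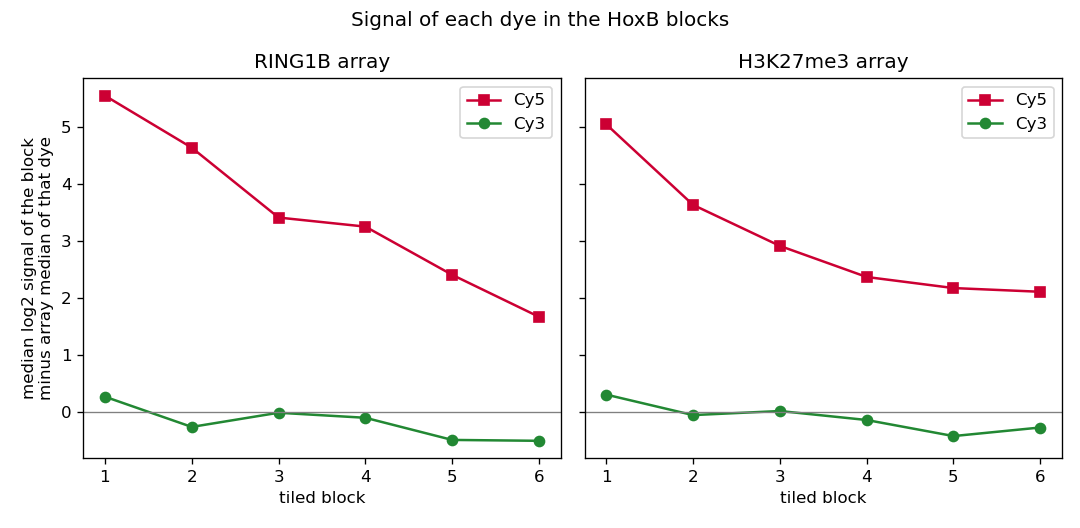
Median log2 signal of each HoxB block minus the array median of the same dye (y axis) by tiled block (x axis), for the RING1B array on the left and the H3K27me3 array on the right, 1 array each. Cy5 falls from block to block, with RING1B at 5.55 in block 1 and 1.67 in block 6, and H3K27me3 at 5.05 and 2.11, while Cy3 stays between -0.51 and 0.30.

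The HoxB medians of Cy5 over Cy3 were at least 4-fold high for both antibodies in all 6 tiled blocks. Part of block 6 was not, as described below. With normexp background correction, the RING1B medians of blocks 4, 5 and 6 were 1.82, 1.54 and 1.02. Those of H3K27me3 were 0.56, 0.62 and 0.73. A probe was kept where both dyes were well above background, which left 282 probes for RING1B, 284 for H3K27me3 and 276 for both. All probes that were lost failed in Cy3 alone, 19 on the RING1B array and 17 on the H3K27me3 array. RING1B values ran from -2.63 over a median of 3.82 to 6.77 (SD 1.52 over 282 probes). H3K27me3 values ran from -2.94 over a median of 3.18 to 5.84 (SD 1.47 over 284 probes). The medians lay at percentile 97.2 and 92.3 of all kept probes of their array.

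Of the 282 kept probes, 244 were at least 4-fold high for RING1B (86.5%, Wilson 95% interval 82.0% to 90.0%), against 7.49% of all kept probes of array 2. For H3K27me3 the count was 217 of 284 (76.4%, 71.1% to 81.0%), against 14.5% of the array. With normexp background correction the shares were 65.2% for RING1B and 31.3% for H3K27me3, against 4.46% and 5.12% of the array, and the H3K27me3 median was 1.27. The intervals cover counting error only and take neighbouring probes as independent. At 2-fold, 265 probes passed for RING1B, against 18.7% of the array, and 255 for H3K27me3, against 24.3%. At 8-fold the counts were 197 and 157, against 4.34% and 8.5% of the array. In the labelled direction, Cy3 over Cy5 by at least 4-fold, 1 HoxB probe passed for RING1B, against 3.69% of the array, and 1 for H3K27me3, against 5.7%. The H3K27me3 probe, at -2.94, lay in block 2 from 96077436 to 96077495, where RING1B read 4.33. Its spot was the only kept HoxB spot that the scanner software had marked as an outlier, and its log2 Cy3 stood 8.13 above the array median.

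**Figure D2:**
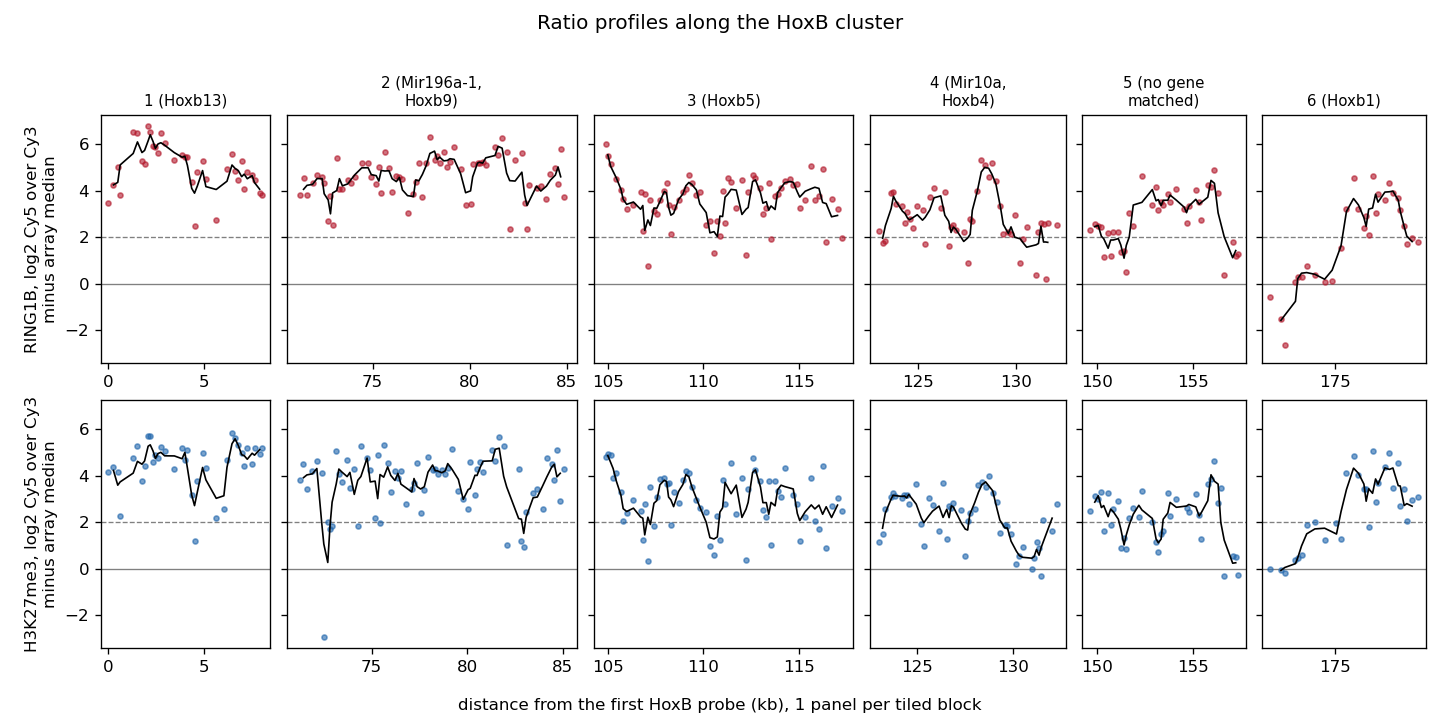
Centred log2 Cy5 over Cy3 (y axis) of each kept HoxB probe against distance from the first probe in kb (x axis), with 1 panel per tiled block, RING1B above and H3K27me3 below. Points are probes, black lines are means of 3 neighbouring probes, and the dashed line marks 4-fold. Values are highest in block 1, and the black lines are lowest at the opening of block 6, where RING1B drops to -2.63. The lowest single H3K27me3 probe, at -2.94, is in block 2.

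Block medians were highest at the Hoxb13 end and lower towards the Hoxb1 end, without an even fall. In block 1 (96004929 to 96013002), at the posterior gene Hoxb13, RING1B ran from 2.50 over a median of 5.08 to 6.77 (SD 1.03 over 36 probes). H3K27me3 there ran from 1.20 over 4.75 to 5.84 (SD 1.05 over 37 probes). All 36 probes were 4-fold high for RING1B and 36 of 37 for H3K27me3. Among 9998 tiled regions of the array, block 1 ranked 37 by its RING1B median, and among 9988 regions it ranked 10 by its H3K27me3 median. With the sign turned to the labelled direction, these ranks were 9962 for RING1B and 9979 for H3K27me3.

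Block 2 (96076182 to 96090046), with Mir196a-1 and Hoxb9, had a RING1B median of 4.60, from 2.33 to 6.30 (SD 0.91 over 68 probes). H3K27me3 had a median of 4.10, and its next lowest probe after the marked spot read 0.93 (SD 1.38 over 69 probes). All 68 probes were 4-fold high for RING1B and 61 of 69 for H3K27me3. Block 3 (96109818 to 96122203), whose end matched the spacing of Hoxb5, had a RING1B median of 3.79 (SD 1.03 over 65 probes). The lowest RING1B probe there read 0.75 and the highest window of 3 probes 5.55 ± 0.43. H3K27me3 had a median of 3.05 there, from 0.32 to 4.92 (SD 1.17 over 64 probes). In block 3, 59 of 65 probes were 4-fold high for RING1B and 52 of 64 for H3K27me3.

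The medians of the remaining blocks were lower. Block 4 (96127952 to 96137295), with Mir10a and Hoxb4, had medians of 2.61 for RING1B (0.19 to 5.31, SD 1.16 over 47 probes) and 2.51 for H3K27me3 (-0.31 to 3.97, SD 1.12 over 47 probes). Block 5 (96154565 to 96162357), between the blocks of Hoxb4 and Hoxb1, had medians of 2.72 for RING1B (0.36 to 4.90, SD 1.18 over 37 probes) and 2.38 for H3K27me3 (-0.34 to 4.62, SD 1.16 over 38 probes). Block 6 (96176552 to 96184338), at Hoxb1, had medians of 2.08 for RING1B (-2.63 to 4.64, SD 1.89 over 29 probes) and 2.87 for H3K27me3 (-0.17 to 5.05, SD 1.62 over 29 probes). With 1 array per antibody, differences between the medians of blocks 4, 5 and 6 were not tested. The share of probes 4-fold high for RING1B was 90.8% in block 3, 80.9% in block 4, 75.7% in block 5 and 51.7% in block 6. For H3K27me3 it was 81.3%, 57.4%, 60.5% and 62.1%.

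**Figure D3:**
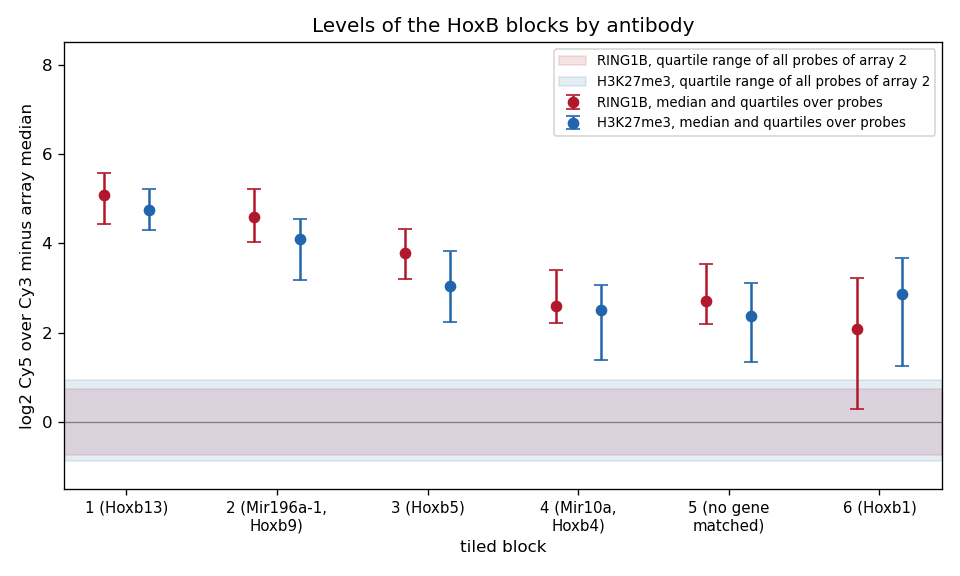
Median centred log2 Cy5 over Cy3 (y axis) of the 6 HoxB blocks (x axis, low to high coordinate) for RING1B and H3K27me3, with bars for the quartiles over probes and shaded bands for the quartile range of all kept probes of array 2. RING1B medians are 5.08 in block 1 and 2.08 in block 6, and H3K27me3 medians are 4.75 in block 1, 2.38 in block 5 and 2.87 in block 6.

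For both antibodies the median of block 6 lay below that of block 1, and whether the size of this fall differs between them was not tested. Block 1 exceeded block 6 by 3.00 for RING1B and by 1.88 for H3K27me3. With loess it exceeded it by 1.86 for RING1B and 1.27 for H3K27me3. With blocks split at 500 bp, first minus last block was 0.98 for RING1B and 0.71 for H3K27me3. The first block is then only the opening of block 1, 96004929 to 96005581. These values therefore do not compare the whole of block 1 with block 6. Across probes, position and level correlated with rho = -0.635 for RING1B over 282 probes and -0.516 for H3K27me3 over 284. Probes share arrays and neighbours overlap in the fragments they report, so these values are descriptions. In all 10 settings tried, the main one included, block 1 lay above block 2, and block 2 above block 3, for both antibodies. Block 3 lay above each of the other blocks. The value tables and the 2 other centrings could not change this order, and the split at 500 bp was not among the 10. RING1B was lowest in block 6 in all 10, and H3K27me3 was higher in block 6 than in blocks 4 and 5 in all 10.

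The Hoxb1 block was divided. On the side of its midpoint that faces Hoxb13, RING1B ran from -2.63 over 0.12 to 1.54 over 11 probes, none of them 4-fold high. H3K27me3 ran there from -0.17 over 0.59 to 2.02, with 1 of 11 probes 4-fold high. On the other side, RING1B ran from 1.69 over 3.20 to 4.64 and H3K27me3 from 1.81 over 3.46 to 5.05, with 15 and 17 of 18 probes 4-fold high. The ranges of the 2 sides did not overlap for RING1B. The block thus held a stretch at the array's middle and a peak within a few kilobases of each other.

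Windows of 3 neighbouring probes were ranked after leaving out any that shared a probe with a window higher in the list (lower, for the lowest), so overlapping windows can lie between those named. The 5 highest for each antibody lay in blocks 1 and 2. For RING1B the highest was 96006995 to 96007312 in block 1, with probes at 6.77, 6.54 and 5.92 (mean 6.41 ± 0.44). H3K27me3 read 5.71, 5.70 and 4.59 on the same probes (5.33 ± 0.64), the second of its 5 windows. The next 4 without shared probes for RING1B averaged 5.71 to 6.11, with 2 in block 1 and 2 in block 2. For H3K27me3 the highest was 96011367 to 96011749 in block 1, with probes at 5.84, 5.62 and 5.32 (5.59 ± 0.26). RING1B read 4.97 ± 0.55 there, so the maxima of the antibodies in block 1 were different windows. In block 4, at Mir10a and Hoxb4, RING1B peaked at 5.01 ± 0.37 from 96133144 to 96133575, against a block median of 2.61. The highest H3K27me3 window of that block overlapped it, from 96133318 to 96133731, at 3.74 ± 0.23.

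The lowest window for both antibodies was the opening of block 6, 96176552 to 96177390. RING1B read -0.60, -1.51 and -2.63 there (-1.58 ± 1.02), and H3K27me3 read -0.02, -0.04 and -0.17 (-0.08 ± 0.08). The next lowest RING1B windows that shared no probe, at 0.19 and 0.22, were also in block 6, and the other 2 of the 5 were in block 5. In block 5, H3K27me3 from 96161573 to 96162219 averaged 0.23 ± 0.50, with RING1B at 1.12 ± 0.72. A window of block 4 from 96135447 to 96136089 averaged 0.45 ± 0.48 for H3K27me3 and 1.67 ± 1.15 for RING1B. Its middle probe, 96135926 to 96135985, was bright in both dyes. Relative to the array medians, Cy5 and Cy3 stood there at 4.56 and 4.66 for H3K27me3, and at 4.68 and 4.28 for RING1B.

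The antibodies followed each other across the cluster, and on the log2 scale the Hoxb1 block differed from the rest in their balance. Over 276 probes kept for both, RING1B and H3K27me3 correlated with r = 0.821 and rho = 0.851, against 0.672 and 0.561 over the array. Both were 4-fold high at 205 of 276 probes, against 7.16% of probes of the array. A further 34 were 4-fold high for RING1B alone, 6 for H3K27me3 alone and 31 for neither. Shares of these classes over the array were not computed. Over the array, 14921 of 199175 kept probes were 4-fold high for RING1B and 28696 of 197574 for H3K27me3. Both were so at 12816 of 178940, so most RING1B-high probes of the array were high for H3K27me3 too. Whether the counts are particular to HoxB was not tested. RING1B minus H3K27me3 had a median of 0.54 (SD 0.90 over probes), against 0.077 over 178940 probes of the array. A higher RING1B value was not particular to HoxB, since HoxC on the same arrays had medians of 4.93 for RING1B and 4.24 for H3K27me3. RING1B was higher at 211 of 276 HoxB probes, and the array share of this was not computed either. In blocks 1 to 5 the median difference was 0.66, 0.70, 0.58, 0.63 and 0.64. In block 6 it was -0.60 (SD 0.69 over 28 probes), with RING1B higher at 6 of 28. With normexp it was 0.17 in block 6, against 1.14 to 1.37 in the others. The antibodies have no common scale, so only the contrast between blocks of the same arrays is compared here, and it was not tested.

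RING1B stood above H3K27me3 by a median of 3.69 percentile points over the cluster. By block, the difference was 0.46 in block 1, 7.88 in block 4 and -0.44 in block 6. Median percentiles in block 1 were 98.9 for RING1B and 98.5 for H3K27me3, near the top of the scale, where rank differences are small. In block 6 they were 93.5 and 91.0, although the median of the differences was below 0. The closeness of blocks 1 and 6 in this measure thus does not show a like balance. With normexp the difference in block 6 was 0.60 points, so its sign turns, and block 1 was lower at 0.28 points. Among windows without shared probes, those where RING1B ranked highest above H3K27me3 were 96077436 to 96077805 in block 2, which holds the marked spot, 96162015 to 96162357 in block 5 (by 29.0 points) and 96136045 to 96136346 in block 4 (by 21.8 points). The 3 windows without shared probes where H3K27me3 ranked highest above RING1B were all in block 6, where RING1B minus H3K27me3 averaged -34.4, -19.2 and -8.36 points. The first of these was its opening window.

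**Figure D4:**
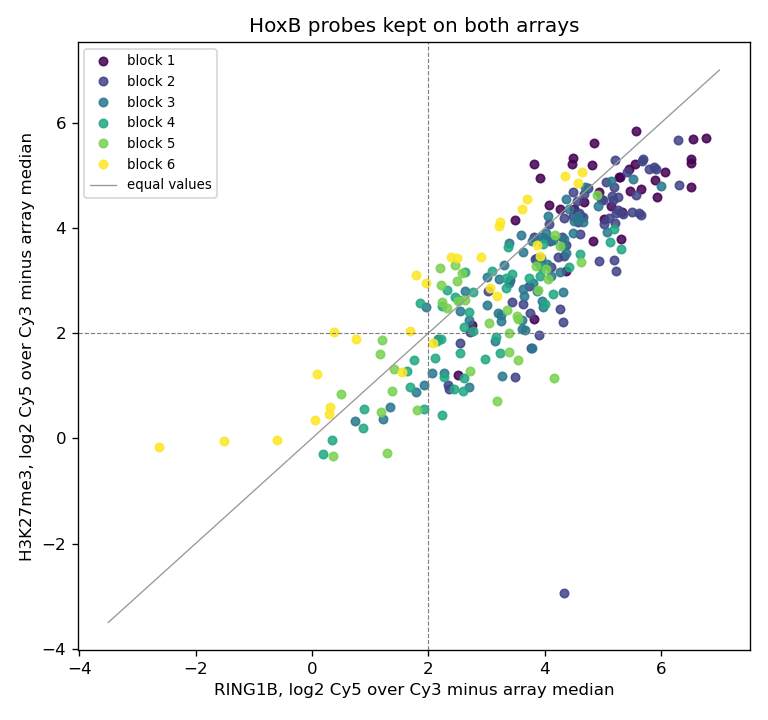
RING1B (x axis) against H3K27me3 (y axis), both as centred log2 Cy5 over Cy3, for the 276 HoxB probes kept on both arrays, coloured by block, with dashed lines at 4-fold and a grey line of equal values. Most points lie below the grey line, while those of block 6 lie mostly above it, and the single point at -2.94 is the marked spot of block 2.

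Means of 3 neighbouring probes that were at least 4-fold high, overlapping windows included, joined across up to 20 kb without such a window, formed 2 domains for each antibody. The shorter one, 96004929 to 96013002 (8.07 kb), held 34 such windows for RING1B and 35 for H3K27me3. The longer one measured 108 kb for either antibody. It held 204 RING1B windows between 96076182 and 96184017, and 190 H3K27me3 windows between 96076182 and 96184338. The shorter one is the whole of block 1. The array has no probes between the 6 blocks, so that DNA was not measured, and the longer domain bridges these gaps from block 2 to block 6. Its length includes them. The gap between blocks 1 and 2 is wider than 20 kb, so these blocks could not be joined whatever their level. The count and lengths of the domains thus depend on where probes were placed. Joined across at most 5 kb, the longest domain was 13.7 kb for RING1B and 13.9 kb for H3K27me3. With normexp it was 58.1 kb and 43.3 kb. At 8-fold, the longest RING1B domain measured 58.1 kb, and the longest H3K27me3 domain was also shorter.

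The next tiled blocks outside the window differed by side. The one before the cluster, 52.5 kb from it (95945420 to 95952405), had medians of -0.10 for RING1B (SD 0.83 over 29 probes) and 0.69 for H3K27me3 (SD 0.59 over 28 probes). None of its probes was 4-fold high for RING1B and 1 was for H3K27me3. The one after the cluster, 91.7 kb from it (96276023 to 96283257), lies within 1 bp of the spacing of Skap1, a signalling adaptor of T cells. It had medians of 0.96 for RING1B (SD 0.95 over 34 probes) and 2.24 for H3K27me3 (SD 1.17 over 34 probes), with 4 and 19 probes 4-fold high. The medians of the block before lay at percentile 46.6 for RING1B and 71.1 for H3K27me3 of their arrays, and those of the block after at 80.1 and 87.1.

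Among the Hox clusters, HoxC can be set beside HoxB on the same arrays. HoxB minus HoxC was -1.11 for RING1B (medians 3.82 and 4.93) and -1.06 for H3K27me3 (3.18 and 4.24). Over the alternatives run, the difference lay between -1.20 and -0.77 for RING1B and between -1.19 and -0.61 for H3K27me3, and with 1 array per antibody it was not tested. In HoxC, 299 of 308 kept probes were 4-fold high for RING1B (97.1%) and 280 of 306 for H3K27me3 (91.5%), and none was so in the labelled direction. HoxA and HoxD were measured on array 1, where 6.44% of kept probes were 4-fold high for RING1B and 17.7% for H3K27me3. In the labelled direction these shares were 3.39% and 6.43%. HoxA had medians of 3.14 for RING1B and 3.00 for H3K27me3, with 310 of 417 and 305 of 409 probes 4-fold high. HoxD had medians of 3.85 and 3.88, with 253 of 340 and 293 of 342 probes 4-fold high.

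A higher level at the group 13 end was also measured in HoxC and HoxD. By the gene order of the table, the block at Hoxb13 exceeded that at Hoxb1 by 3.00 for RING1B and 1.88 for H3K27me3. For HoxC, from Hoxc13 to Hoxc4, the differences were 2.48 and 1.89. For HoxD, from Hoxd13 to Hoxd1, they were 3.15 and 1.32. Each end is 1 block on 1 array per antibody, so the differences between clusters were not tested.

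**Figure D5:**
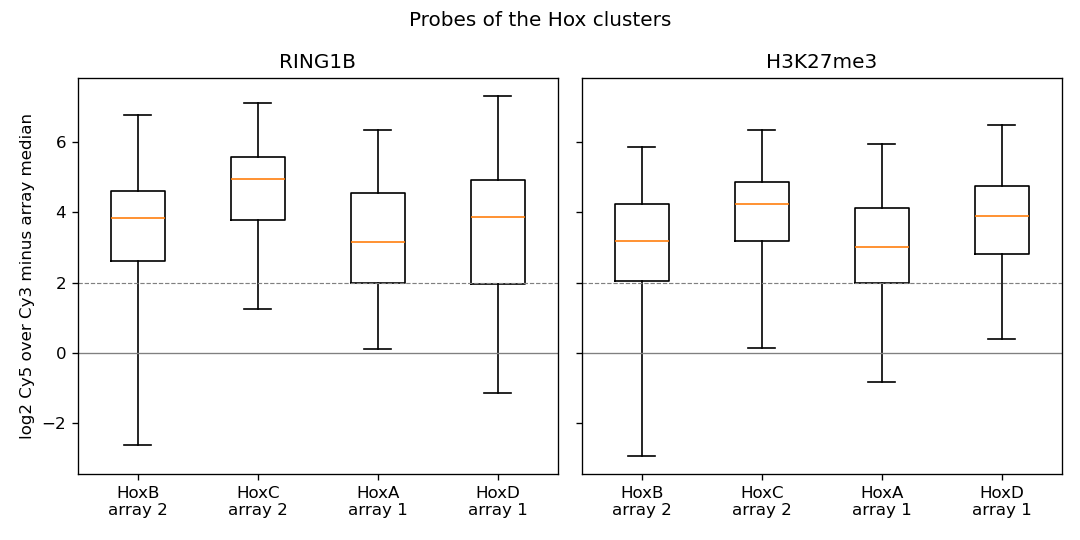
Centred log2 Cy5 over Cy3 (y axis) of the kept probes of HoxB, HoxC, HoxA and HoxD (x axis, with the array that carries each), for RING1B on the left and H3K27me3 on the right. Boxes are quartiles with the median, whiskers reach the lowest and highest probe, and the dashed line marks 4-fold. HoxB medians, 3.82 and 3.18, lie below those of HoxC, 4.93 and 4.24.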

How the data were processed

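Chromatin of pooled E10.5 forelimb buds was measured on 4 Agilent 2-colour arrays, of which 1 per antibody carries HoxB. Agilent Feature Extraction 10.1.1.1 read the scans, per the file headers, and its processed signals are intensity values after background subtraction, detrending and linear dye normalization. Per the file headers, raw median signals and local backgrounds are uncorrected intensity values, and the log ratio columns are log10 values. The deposited value tables are log2 ratios, and all of their values lay within 0.001 of log2 Cy5 over Cy3 of the processed signals. For the probe coordinates the build was not given in the sources used here.

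Probes of control type 0 and well above background in both dyes were kept, spots marked as outliers included, and log2 ratios were centred on the array median. Blocks were split at 1000 bp, windows were means of 3 probes (those named share no probe within their list), and domains joined windows at most 20 kb apart. The number of arrays limits the precision. Gene starts came from the RefSeq table of GRCm38.p6, used for distances and order alone. The named windows were the 5 highest and 5 lowest per antibody and the 3 largest rank differences in each direction. The other clusters were whole windows set by eye after the values were seen. Members, lists and thresholds were chosen with earlier results of these data known. Alternatives were normexp with an offset of 50, loess with a span of 0.3 (limma 3.58.1 in R 4.3.3), plain background subtraction, the value tables, 2 other probe filters, 2 other centrings, other thresholds, windows and gaps. Python 3.11.15 with pandas 2.3.3 did the rest, and block and window functions were tested on simulated data. The comparison of the ends of HoxA is not reported here.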

Additional observations from a re-analysis of the deposited data

How the results depend on the processing

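Of 222 recomputed values, 196 kept their direction and stayed within set limits. These were the SD over probes, the 95% interval of a share or 1.5 times a count or length. Another 21 moved further and 5 changed sign. Some of the 196 could not move, since the value tables repeat the main values and other centrings leave differences within an array unchanged. The SD over probes is also a wide limit for a level. The share of probes 4-fold high was 65.2% for RING1B and 31.3% for H3K27me3 with normexp, against 4.46% and 5.12% of the array. It was 79.1% and 63.0% with loess, 94.0% and 89.8% at 2-fold, 69.9% and 55.3% at 8-fold, and 81.0% for H3K27me3 without centring. The H3K27me3 median was 1.27 with normexp. The highest RING1B window was 4.85 with loess. The longest RING1B domain was 58.1 kb with normexp and at 8-fold, and 13.7 kb with joining across 5 kb. The longest H3K27me3 domain was 43.3 kb with normexp, 58.1 kb centred on the array mean, 58 kb at 8-fold and 13.9 kb with joining across 5 kb. H3K27me3 windows past the threshold numbered 225, against 89 with normexp and 144 at 8-fold. With blocks split at 500 bp, where the first block is only the opening of block 1, first minus last RING1B block was 0.98. HoxB minus HoxD for RING1B was -0.03, and 0.17 with normexp, 0.057 without a filter on dim probes and 0.0087 with at least 1 dye above background. For H3K27me3, HoxB minus HoxD was -0.70, and 0.87 with loess. HoxB minus HoxA was 0.18 for H3K27me3, and -0.97 with normexp. The cause of these changes was not tested. Leaving out outlier spots or the Hoxb13 block, both chosen after seeing the data, moved none of the levels, shares or differences further than these limits. No paired analysis was possible because the numbers 1 and 2 mark array designs with different probes. Signal over background limits the dimmest probes, all lost in Cy3.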

Other observations

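In every block but block 5, the lowest windows of the antibodies shared probes, and in block 6 both were its opening window. In block 1 both were lowest from 96009266 to 96009608, with RING1B at 3.90 ± 1.23 and H3K27me3 at 2.71 ± 1.34, against block medians of 5.08 and 4.75. In block 2 they overlapped, at 96077643 to 96077914 for RING1B and 96077436 to 96077805 for H3K27me3. The latter holds the marked spot. In block 3 the lowest windows overlapped, with RING1B at 2.03 ± 0.68 (96115479 to 96115831) and H3K27me3 at 1.28 ± 0.87 (96115266 to 96115696). They also overlapped in block 4, with RING1B at 1.57 ± 1.09 (96135277 to 96135985) and H3K27me3 at 0.45 ± 0.48 (96135447 to 96136089). In block 5 they lay apart, at 96156179 to 96156512 for RING1B and 96161573 to 96162219 for H3K27me3. Within a block, probe values of the antibodies correlated with r between 0.666 in block 5 and 0.934 in block 6. The probes are the same on both arrays, and their part in this was not tested.

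The H3K27me3 windows of block 1 among the 5 highest without shared probes lay on both sides of its low window. RING1B was higher on the side away from block 2, with a median of 5.60 over 18 probes against 4.59 over 18 probes on the side towards it. The H3K27me3 medians of these sides were 4.72 over 18 probes and 4.95 over 19 probes.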
